A study of Mus musculus with 9 samples.

Results

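Dppa4 siRNA was compared directly with Dppa2 siRNA in mouse ESCs, to ask which groups of genes responded more to the loss of one partner than of the other. The comparison was made between the 3 libraries labelled Dppa4 siRNA and the 3 labelled Dppa2 siRNA, which are 6 of the 9 samples of the series. The other 3, from cells given control siRNA, served as the reference level. E14 ESCs (129/Ola background) were grown in serum and LIF without feeders, transfected with a pool of siRNAs at 0 h and again at 48 h, and collected at 96 h, after 4 d of knockdown. The study describes its knockdowns in ESCs that carry MERVL::tdTomato and Zscan4c::eGFP reporters. Polyadenylated RNA was then sequenced. The study describes its replicates as biological, but nothing states whether libraries A, B, and C of a treatment came from separate cultures, so the p-values measure the spread between these libraries. Values are the deposited log2 expression values, and a difference is Dppa4 siRNA minus Dppa2 siRNA on that scale, so it is positive where a transcript was higher after Dppa4 siRNA.

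Dppa2 and Dppa4 are small nuclear proteins with a SAP domain that bind chromatin and form a heterodimer in pluripotent cells. They bind promoters that carry both active and repressive histone marks, keep those promoters from acquiring DNA methylation, and are needed for ESCs to enter the 2C-like state, in which a small share of cells transcribes genes of the two-cell embryo. Because each protein works with the other, a direct comparison of the knockdowns asks whether any transcripts follow one partner alone. ESC identity was examined first. Pou5f1, Sox2, Nanog, Zfp42, and Esrrb, which define pluripotent cells, lay between 7.45 and 10.41 in every library. A short set of markers that define other lineages was far less abundant, although longer lists hold genes that ESCs also express, such as Vim of the fibroblast list at 6.71 to 7.07. The fibroblast genes Col3a1, Postn, and Dcn and the trophoblast gene Elf5 were below -2 in every library and were not tested. The most abundant in the short set were the neural genes Pax6 (2.67 to 3.67 over the 9 libraries) and Sox1 (2.50 to 2.95) and the primitive endoderm gene Dab2 (2.58 to 3.22).

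Sequencing depth, estimated from the order of the distinct low values, was 26.7, 19.9, and 16.8 Mreads on genes for Dppa2 siRNA libraries A, B, and C and 29.0, 30.4, and 21.2 Mreads for those of Dppa4 siRNA, so the latter were on the whole deeper, with overlap. The control libraries held 24.3, 39.7, and 20.7 Mreads. Libraries within a treatment differed along one axis. Among 8522 genes with a mean log2 value above 3, 82.8% of the variation within treatments lay on it, with control A, Dppa2 siRNA B, and Dppa4 siRNA C furthest to one side. In those 3 libraries GC-rich transcripts were low relative to the other libraries of the same treatment (Spearman's rho across genes with GC content -0.41, -0.41, and -0.57). Measured against the mean of all 9 libraries, the slope on GC content was -0.29, 0.00, and 0.10 per 10% GC in control A, B, and C, 0.14, -0.21, and 0.04 with Dppa2 siRNA, and 0.19, 0.08, and -0.06 with Dppa4 siRNA. The difference between the knockdowns was itself related to GC content across these genes (rho 0.27) and hardly to transcript length (rho -0.01). Genes are not independent replicates, so no p is given.

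The targeted transcripts separated the knockdowns in every library. Dppa2, at chromosome 16 from 48310477 to 48319723 of GRCm38 (ENSMUSG00000072419), was at 3.36, 3.86, and 3.68 in Dppa2 siRNA libraries A, B, and C and at 7.01, 7.17, and 7.03 in those of Dppa4 siRNA. Its level after Dppa4 siRNA lay within the control range of 6.94 to 7.26. The difference was 3.43 (95% interval 3.11 to 3.76), a 10.8-fold higher level with Dppa4 siRNA (adjusted p = 2.4e-05 from limma). Dppa4, which lies upstream on the same strand from 48283735 to 48294292 (ENSMUSG00000058550), was at 7.11, 7.07, and 7.17 with Dppa2 siRNA and at 6.16, 6.14, and 6.09 with Dppa4 siRNA, against 7.02, 7.11, and 7.06 in control cells. The difference of -0.99 (-1.16 to -0.81) corresponds to a 1.98-fold higher level with Dppa2 siRNA (adjusted p = 0.00351). When Dppa4 siRNA replicate B was left out the difference was -0.99 and missed the threshold (adjusted p = 0.0688), as did the -0.97 without replicate C (0.0525). Over all the settings tried the adjusted p ranged from 2.5e-06 (sample quality weights) to 0.126. At the RNA level the depletion was thus deeper for Dppa2 than for Dppa4. These libraries do not measure either protein, so a response that depends on the partner cannot be told apart in them from one that depends on how much of each protein was left.

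Beyond the targets, very few transcripts distinguished the knockdowns gene by gene. Of 14601 genes tested, 2 passed as higher with Dppa4 siRNA (0.0137%), Dppa2 itself and 4930486L24Rik, and 1 as lower (0.00685%), Dppa4 itself, at an adjusted p below 0.05 in limma. At an unadjusted p below 0.05 there were 536 higher (3.67%) and 451 lower (3.09%), and the 3 Dppa4 siRNA libraries lay wholly above the 3 of Dppa2 siRNA at 1471 genes (10.1%) and wholly below at 1101 (7.54%). The median difference over all tested genes was 0.00, and 91.4% of genes differed by less than 0.5. The median 95% interval reached 0.43 to either side of the difference, and 0.31 among abundant genes with a mean of 5 or more. Most differences under about that size therefore fell short of even an unadjusted p of 0.05 with 3 libraries a side. Larger differences also missed the adjusted threshold, such as -0.83 for Sycp3 (adjusted p = 0.24 from limma). A missing call therefore does not show that a difference of that size is absent. When the GC slope of each library was added to the model as a term, a choice made after the data were seen, 237 genes passed as higher with Dppa4 siRNA (1.62%) and 269 as lower (1.84%) at the same adjusted threshold. The difference had the same sign in both fits for all 506 of these genes, and 238 of them had an unadjusted p below 0.05 without the term. What sets the GC slope of a library was not tested, and calls from that fit are named as such.

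The transcript 4930486L24Rik (ENSMUSG00000050345, chromosome 13 from 60842621 to 60864416) was nearly lost with Dppa2 siRNA and partly kept with Dppa4 siRNA. It lies among the cathepsin and Ctla2 genes that are used mainly in placenta. Its log2 expression was 0.03, 0.62, and 0.67 in control libraries A, B, and C, -4.05, -3.84, and -4.47 with Dppa2 siRNA, and -0.94, -0.83, and -0.83 with Dppa4 siRNA. The 3 treatments did not overlap, and the knockdowns differed by 3.26 (2.56 to 3.95, adjusted p = 0.0106 from limma). These values rest on few reads, an inferred 1, 1, and 0 with Dppa2 siRNA and 16, 17, and 12 with Dppa4 siRNA, against 33, 87, and 41 in control cells. Per read on genes the ratio of the knockdowns was 17.6 with an exact 95% interval of 4.59 to 150.0. Such intervals cover counting error alone, as several reads may come from the same molecule. Of the 20 genes that overlap the region within 1 Mb to either side of it, itself included, only 3 were tested. Among the neighbours, the growth-arrest gene Gas1 had a difference of -0.45 (unadjusted p = 0.0503) and Dapk1, a kinase gene, one of 0.14 (0.351), whereas Ctla2a, Ctla2b, Tpbpa, and Tpbpb had no reads in any library. The call was lost without control replicate B, Dppa2 siRNA replicate A, or any 1 of the Dppa4 siRNA replicates, with adjusted p of 0.0584, 0.0582, 0.106, 0.129, and 0.12 in limma and differences of 3.24 to 3.29. The 6 knockdown libraries alone also lost it in limma (3.26, adjusted p = 0.0833), as did the replicate letter as a block (3.26, adjusted p = 0.134). Over all the settings tried the adjusted p ranged from 4.0e-05 (sample quality weights) to 0.581. On log2 values of the linear level plus 1, which shrinks scarce transcripts, the difference was 0.55 (adjusted p = 0.581).

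**Figure D1:**
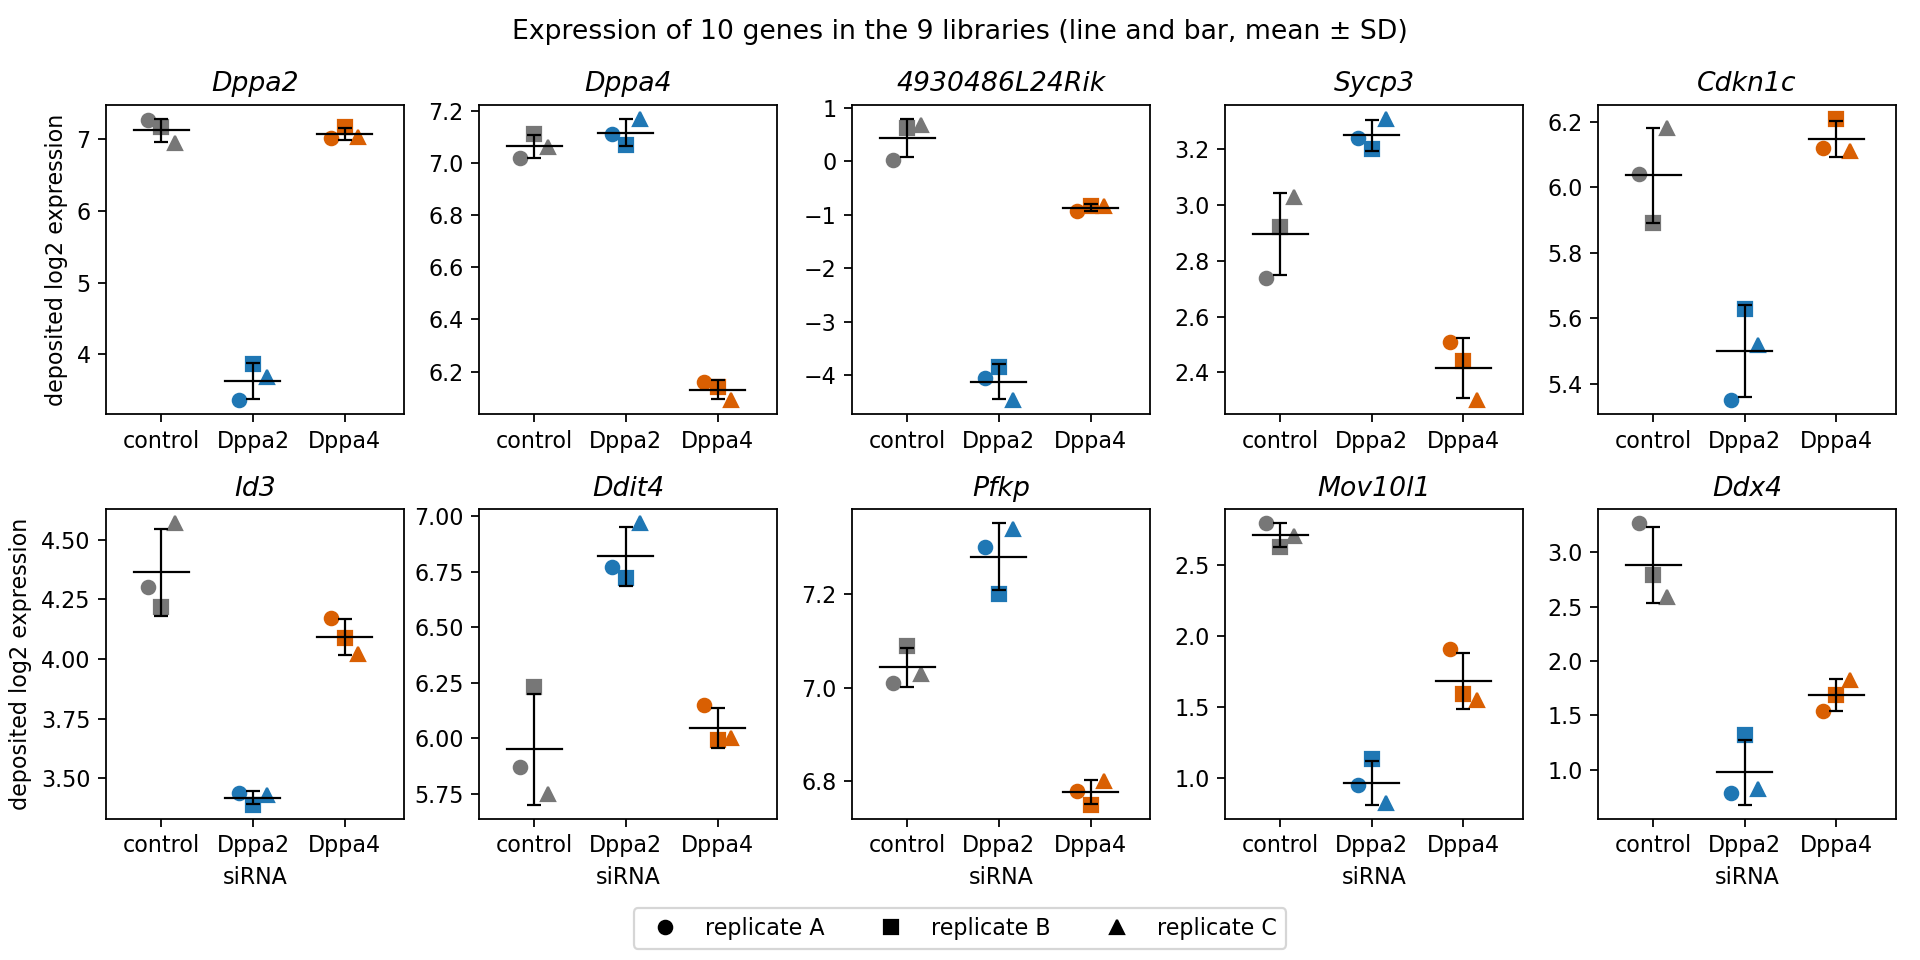
Deposited log2 expression of 10 genes in each library, grouped by siRNA on the horizontal axis, with circles, squares, and triangles for replicates A, B, and C and black lines and bars for the mean ± SD of 3 libraries. The vertical scales differ between genes. Dppa2 and 4930486L24Rik were lowest with Dppa2 siRNA, Dppa4 with Dppa4 siRNA, and Sycp3 and Pfkp had the control libraries between the knockdowns.

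The summed reads of the Zscan4 cluster and of the scarcest other 2-cell genes did not differ detectably between the knockdowns. Both knockdowns left the Zscan4 cluster, whose zinc finger proteins mark 2C-like cells, with few reads. The 5 tested members together had an inferred 12, 3, and 15 reads in Dppa2 siRNA libraries A, B, and C and 18, 15, and 11 in those of Dppa4 siRNA, against 2165, 3277, and 1295 in control libraries. The knockdown libraries overlapped, and the ratio of Dppa4 siRNA to Dppa2 siRNA was 1.15 (0.704 to 1.89). These genes are near-identical copies, so how reads fall among them is uncertain and only their sum is compared. In bulk RNA, fewer 2C-like cells and less of these transcripts per cell cannot be told apart.

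Of the other genes of the two-cell stage, 36 were tested. Many had few or no reads in the knockdowns, so summed reads are compared and no median is given. The 31 members with fewer than 100 inferred reads in the knockdowns together had 132 reads with Dppa2 siRNA and 168 with Dppa4 siRNA, against 21771 in control cells, a ratio of 0.994 (0.787 to 1.26). A difference within that interval was not detectable at this depth. The set was defined by reads in these same libraries, so it leaves out members that a knockdown kept, such as Pramel6. Its ratio therefore does not cover the whole list. Single members are named for an unadjusted p below 0.05. Pramel6, a PRAME-family gene, was at -0.62, -0.24, and -0.99 with Dppa2 siRNA and at 0.08, 0.52, and 0.04 with Dppa4 siRNA, against 1.44 to 1.75 in control cells, so both knockdowns held less of it and Dppa2 siRNA the least. Dub1 is a deubiquitinase gene with near-identical copies, so its reads are not compared alone. P4ha2, a collagen prolyl hydroxylase, ran the other way, with a difference of -0.30 (-0.55 to -0.06). Regulators known to hold the 2C-like state down were also little apart, with a median of 0.04 over 14 tested. At an unadjusted p below 0.05 there were 2 higher and 0 lower (3.67% and 3.09% of all genes), with differences of 0.32 for L3mbtl2, a Polycomb-group protein, and 0.22 for Trim28, the corepressor of retroviral elements. That median became 0.17 with the GC slope as a term or with sample quality weights and 0.21 without Dppa2 siRNA replicate B.

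Genes called as raised by forced expression of only 1 partner did not separate the knockdowns by partner. These lists come from the study's overexpression experiment and were used for membership only. A gene counted as raised by 1 partner alone if it was called for that partner and not for the other. Such a gene need not be specific to that partner, so the lists cannot decide whether partner-specific targets separate the knockdowns. Of the genes raised by Dppa2 alone, 34 were tested, with a median difference of 0.12 and 2 higher and 1 lower with Dppa4 siRNA at an unadjusted p below 0.05 (3.67% and 3.09% of all genes). Of those raised by Dppa4 alone, 201 were tested, with a median of 0.06 and 9 each way. Of those raised by each of the partners, 171 were tested, with a median of 0.02 and 5 higher and 3 lower. The first median was 0.01, 0.06, and 0.05 without Dppa2 siRNA replicate A or C or Dppa4 siRNA replicate C and 0.19 without Dppa4 siRNA replicate A. The second ranged from 0.00 to 0.07 and the third from -0.01 to 0.03 as single libraries were left out. The third list includes two-cell genes with few or no reads in the knockdowns, whose differences carry little weight. The median change from control after Dppa2 siRNA was -0.52, against -0.45 after Dppa4 siRNA for the first list, and -0.26 and -0.26 for the second. All changes from control use the same 3 control libraries, so they are given side by side and were not related to each other. Gm9788, a processed pseudogene on the first list, was among the members at an unadjusted p below 0.05, at -2.13, -0.32, and -1.13 with Dppa2 siRNA and 0.40, 1.36, and 1.95 with Dppa4 siRNA. It passed with the GC slope as a term. Because a pseudogene shares sequence with its parent gene, its reads are uncertain.

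Among lists with at least 5 tested genes, hypoxia response genes had the median furthest from 0. HIF transcription factors switch on these genes when oxygen is short, and most encode glycolytic enzymes, prolyl hydroxylases, or secreted factors. Of 15 members, all tested, 13 were lower with Dppa4 siRNA, with a median difference of -0.28 (all tested genes 0.00). At an unadjusted p below 0.05 there were 7 lower and 0 higher, where 3.09% and 3.67% of all genes were, and the same 7 had all 3 Dppa4 siRNA libraries below all 3 of Dppa2 siRNA (7.54% of all genes). The median change from control after Dppa2 siRNA was 0.30, against 0.02 after Dppa4 siRNA. Per library, the median of the list relative to the control mean was 0.18, 0.36, and 0.36 with Dppa2 siRNA and 0.03, 0.00, and 0.08 with Dppa4 siRNA. The knockdown libraries did not overlap, and the list median stood above the control mean with Dppa2 siRNA and close to it with Dppa4 siRNA in every library. Under all the settings tried, its median stayed between -0.37 and -0.25. No member reached an adjusted p below 0.05, and 1, Egln1, did with the GC slope as a term, where 1.84% of all genes passed as lower. Lists and members were chosen with earlier results of these data known, so the rank and counts of this list are descriptive.

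Egln1, the prolyl hydroxylase that marks HIF for degradation, was at 4.62, 4.67, and 4.84 with Dppa2 siRNA, 4.18, 4.17, and 4.14 with Dppa4 siRNA, and 4.16, 4.36, and 4.51 in control cells. The difference was -0.55 (-0.81 to -0.29, adjusted p = 0.586 from limma). Its relative Egln3 was at 4.41, 4.93, and 4.84 with Dppa2 siRNA, 4.07, 4.11, and 4.24 with Dppa4 siRNA, and 3.81 to 4.30 in control cells, a difference of -0.59 (-0.98 to -0.19). Both oxygen sensors were thus above every control library only after Dppa2 siRNA. Adm, which encodes the secreted vasodilator adrenomedullin, was scarce, at -0.95, 0.01, and -0.11 with Dppa2 siRNA and -1.62, -1.75, and -1.59 with Dppa4 siRNA (difference -1.31, -2.09 to -0.52). Bnip3, a mitophagy receptor, differed by -0.43 (-0.80 to -0.05), Ndrg1 by -0.42 (-0.69 to -0.16), and the collagen prolyl hydroxylase P4ha1 by -0.28 (-0.48 to -0.08). Pdk1, the kinase that inhibits pyruvate dehydrogenase, differed by -0.26 (-0.47 to -0.05). For several other members the interval included 0. Pgk1 differed by -0.30 (-0.70 to 0.11), Aldoa by 0.10 (-0.13 to 0.32), and Ldha by 0.13 (-0.17 to 0.42), and Vegfa, the angiogenic factor, by -0.24 (-0.73 to 0.26). Not all members stood near control with Dppa4 siRNA. Bnip3, P4ha1, Vegfa, Aldoa, and Ldha were above every control library in all libraries of that knockdown. Outside the list, Ndufa4l2, a HIF target that lowers respiration, was at 4.13, 3.75, and 4.38 with Dppa2 siRNA, above every library of Dppa4 siRNA or control, with a difference of -0.98. It was named after its values were seen, and passed with the GC slope as a term. Oxygen, cell density, and glucose were not recorded per library in the labels, and their part was not tested.

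Because HIF binds a known motif, the promoters of the hypoxia list were searched for the core of the hypoxia response element, ACGTG, on both strands of the 300 bases from 250 before to 50 after the start (RefSeq, GRCm38.p6). Of 32851 promoters in that table, 19.6% held it, and of the genes 21.8% held it in at least 1 promoter. Of 14 list members matched by symbol, 11 held it in at least 1 of their promoters, made up of 4 of the 6 matched members that were lower with Dppa4 siRNA at an unadjusted p below 0.05 and 7 of the 8 others. Ndrg1 was not matched. Pdk1 and Adm, which were also lower at that mark, held none. The list was chosen as genes that HIF switches on, so a motif share above that of all genes carries no weight. A match is a description of the letters and not evidence of binding. The promoters of Egln1, Egln3, and Bnip3 are shown as examples of members that were lower at that mark and hold the motif, which is in capitals (CACGT on the opposite strand).
Egln1 promoter, chr8:124949205-124949504, minus strand: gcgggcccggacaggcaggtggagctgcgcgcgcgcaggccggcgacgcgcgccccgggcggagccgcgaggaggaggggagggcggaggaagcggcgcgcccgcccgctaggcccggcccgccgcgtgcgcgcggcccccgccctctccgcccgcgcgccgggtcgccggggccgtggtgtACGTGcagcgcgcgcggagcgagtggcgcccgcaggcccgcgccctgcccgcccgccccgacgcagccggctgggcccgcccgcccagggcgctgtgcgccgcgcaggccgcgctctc
Egln3 promoter, chr12:54203825-54204124, minus strand: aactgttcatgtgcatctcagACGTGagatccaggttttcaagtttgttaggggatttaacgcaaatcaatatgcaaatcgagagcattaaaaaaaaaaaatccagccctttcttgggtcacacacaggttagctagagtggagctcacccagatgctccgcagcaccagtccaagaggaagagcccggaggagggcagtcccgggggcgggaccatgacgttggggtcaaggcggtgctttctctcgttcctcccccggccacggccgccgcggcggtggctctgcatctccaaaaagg
Bnip3 promoter, chr7:138909457-138909756, minus strand: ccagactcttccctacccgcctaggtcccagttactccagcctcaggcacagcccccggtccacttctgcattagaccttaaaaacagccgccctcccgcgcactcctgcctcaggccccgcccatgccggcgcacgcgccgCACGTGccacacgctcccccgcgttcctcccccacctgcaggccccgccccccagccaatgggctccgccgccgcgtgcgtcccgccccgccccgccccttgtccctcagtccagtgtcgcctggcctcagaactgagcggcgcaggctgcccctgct

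Stress-response genes lay on the same side, more weakly. In the integrated stress response, ATF4 raises genes for amino acid synthesis and uptake when translation is checked. Of its 19 tested members, 16 were lower with Dppa4 siRNA, with a median of -0.17, and 1 was lower and 0 higher at an unadjusted p below 0.05 (3.09% and 3.67% of all genes). The median change from control after Dppa2 siRNA was 0.32, against 0.16 after Dppa4 siRNA. The libraries were separated downward at 4 members and upward at 0 (7.54% and 10.1% of all genes). Without Dppa4 siRNA replicate C the median difference was -0.11. Per library the medians overlapped, with 0.39, 0.19, and 0.43 for Dppa2 siRNA and 0.21, 0.17, and 0.06 for Dppa4 siRNA. Ddit4, which restrains mTORC1 and answers to both hypoxia and ATF4, was the 1 that passed that mark. It was at 6.77, 6.72, and 6.97 with Dppa2 siRNA and between 5.99 and 6.15 with Dppa4 siRNA, against 5.75 to 6.23 in control cells, so it was above control only after Dppa2 siRNA (difference -0.77, -1.08 to -0.46, adjusted p = 0.432 from limma). Asns, the asparagine synthetase, differed by -0.25 (-0.58 to 0.09) and Atf4 itself by -0.13 (-0.51 to 0.25). With the GC slope as a term, Ddit4, Ddit3, and Nupr1 passed as lower (1.84% of all genes). Outside the list Pck2, a mitochondrial enzyme that ATF4 raises, was named after its values were seen and passed in the same fit.

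Among p53 targets, 17 of 20 tested genes were lower with Dppa4 siRNA, with a median of -0.19 and 1 higher and 1 lower at an unadjusted p below 0.05 (3.67% and 3.09% of all genes). All 3 Dppa4 siRNA libraries lay below those of Dppa2 siRNA at 6 and above at 1 (7.54% and 10.1% of all genes). Here the Dppa2 siRNA median was nearer to control, at 0.01, and that of Dppa4 siRNA was -0.11. Per library the medians overlapped, with -0.06, -0.05, and 0.07 for Dppa2 siRNA and -0.05, -0.12, and -0.21 for Dppa4 siRNA. Trp53inp1, which promotes autophagy and cell death, was at 6.49, 6.99, and 6.41 with Dppa2 siRNA and 5.54, 5.80, and 5.92 with Dppa4 siRNA, the latter below every control library (difference -0.88, -1.48 to -0.27). Aen, a nuclease of apoptosis, was an exception, with a difference of 0.35 (0.12 to 0.58). The best-known targets were closer, with -0.24 (-0.58 to 0.10) for the cell cycle inhibitor Cdkn1a and -0.16 (-0.36 to 0.03) for Mdm2. With the GC slope as a term Trp53inp1, Bbc3, and Phlda3 passed as lower (1.84% of all genes). The cell cycle list had a median of 0.07 over 19 tested, with 1 higher (Pcna, the DNA clamp, 0.33) and 1 lower (Mki67, -0.33) at an unadjusted p below 0.05 (3.67% and 3.09% of all genes). Of the 19, 15 were above 0. The Dppa4 siRNA libraries lay wholly above at 5 and wholly below at 1 (10.1% and 7.54% of all genes). In the fit with the GC slope 2 passed as higher and 0 as lower (1.62% and 1.84% of all genes).

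Primitive endoderm genes lay on the opposite side. This lineage arises at low frequency in serum-grown ESCs. Of 21 tested members, 18 were higher with Dppa4 siRNA, with a median of 0.23, and 2 were higher and 1 lower at an unadjusted p below 0.05 (3.67% and 3.09% of all genes). All 3 Dppa4 siRNA libraries lay above those of Dppa2 siRNA at 6 members and below at 1 (10.1% and 7.54% of all genes). The median change from control after Dppa2 siRNA was 0.09, against 0.31 after Dppa4 siRNA, and under all the settings tried the median difference stayed between 0.15, without Dppa2 siRNA replicate A, and 0.32. Per library the list median was -0.03, 0.19, and 0.10 with Dppa2 siRNA and 0.24, 0.41, and 0.25 with Dppa4 siRNA, without overlap. Pdgfra, the receptor that marks the lineage, was at 0.48, 0.94, and 0.82 with Dppa2 siRNA, 1.24, 1.45, and 1.86 with Dppa4 siRNA, and 0.52 to 0.89 in control cells (difference 0.77, 0.29 to 1.26, adjusted p = 0.599 from limma). Gata6, the factor that specifies it, was at 1.03, 1.19, and 0.92 with Dppa2 siRNA, 1.77, 1.81, and 1.64 with Dppa4 siRNA, and -0.28 to 0.62 in control cells (difference 0.70, 0.15 to 1.24). Gata6 was thus above control after either knockdown and highest after Dppa4 siRNA, whereas Pdgfra was above control only after Dppa4 siRNA. The related factors Gata4 and Sox17 had differences of 0.65 and 0.45, each with a 95% interval that included 0. All of these transcripts were scarce, and the summed level of the 5 defining markers was 3.67, 3.96, and 4.04 with Dppa2 siRNA, 4.20, 4.34, and 4.30 with Dppa4 siRNA, and 3.64, 3.77, and 3.30 in control cells, with Dab2 the most abundant. Lamb1, a basement membrane laminin, went the other way (-0.24, -0.46 to -0.01). With the GC slope as a term Pdgfra and Lrp2, an endocytic receptor, passed as higher (1.62% of all genes). Without that term the 95% interval of Lrp2 included 0 (-0.22 to 0.94). Whether the difference in this list lies in the number of primitive endoderm cells was not tested.

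**Figure D2:**
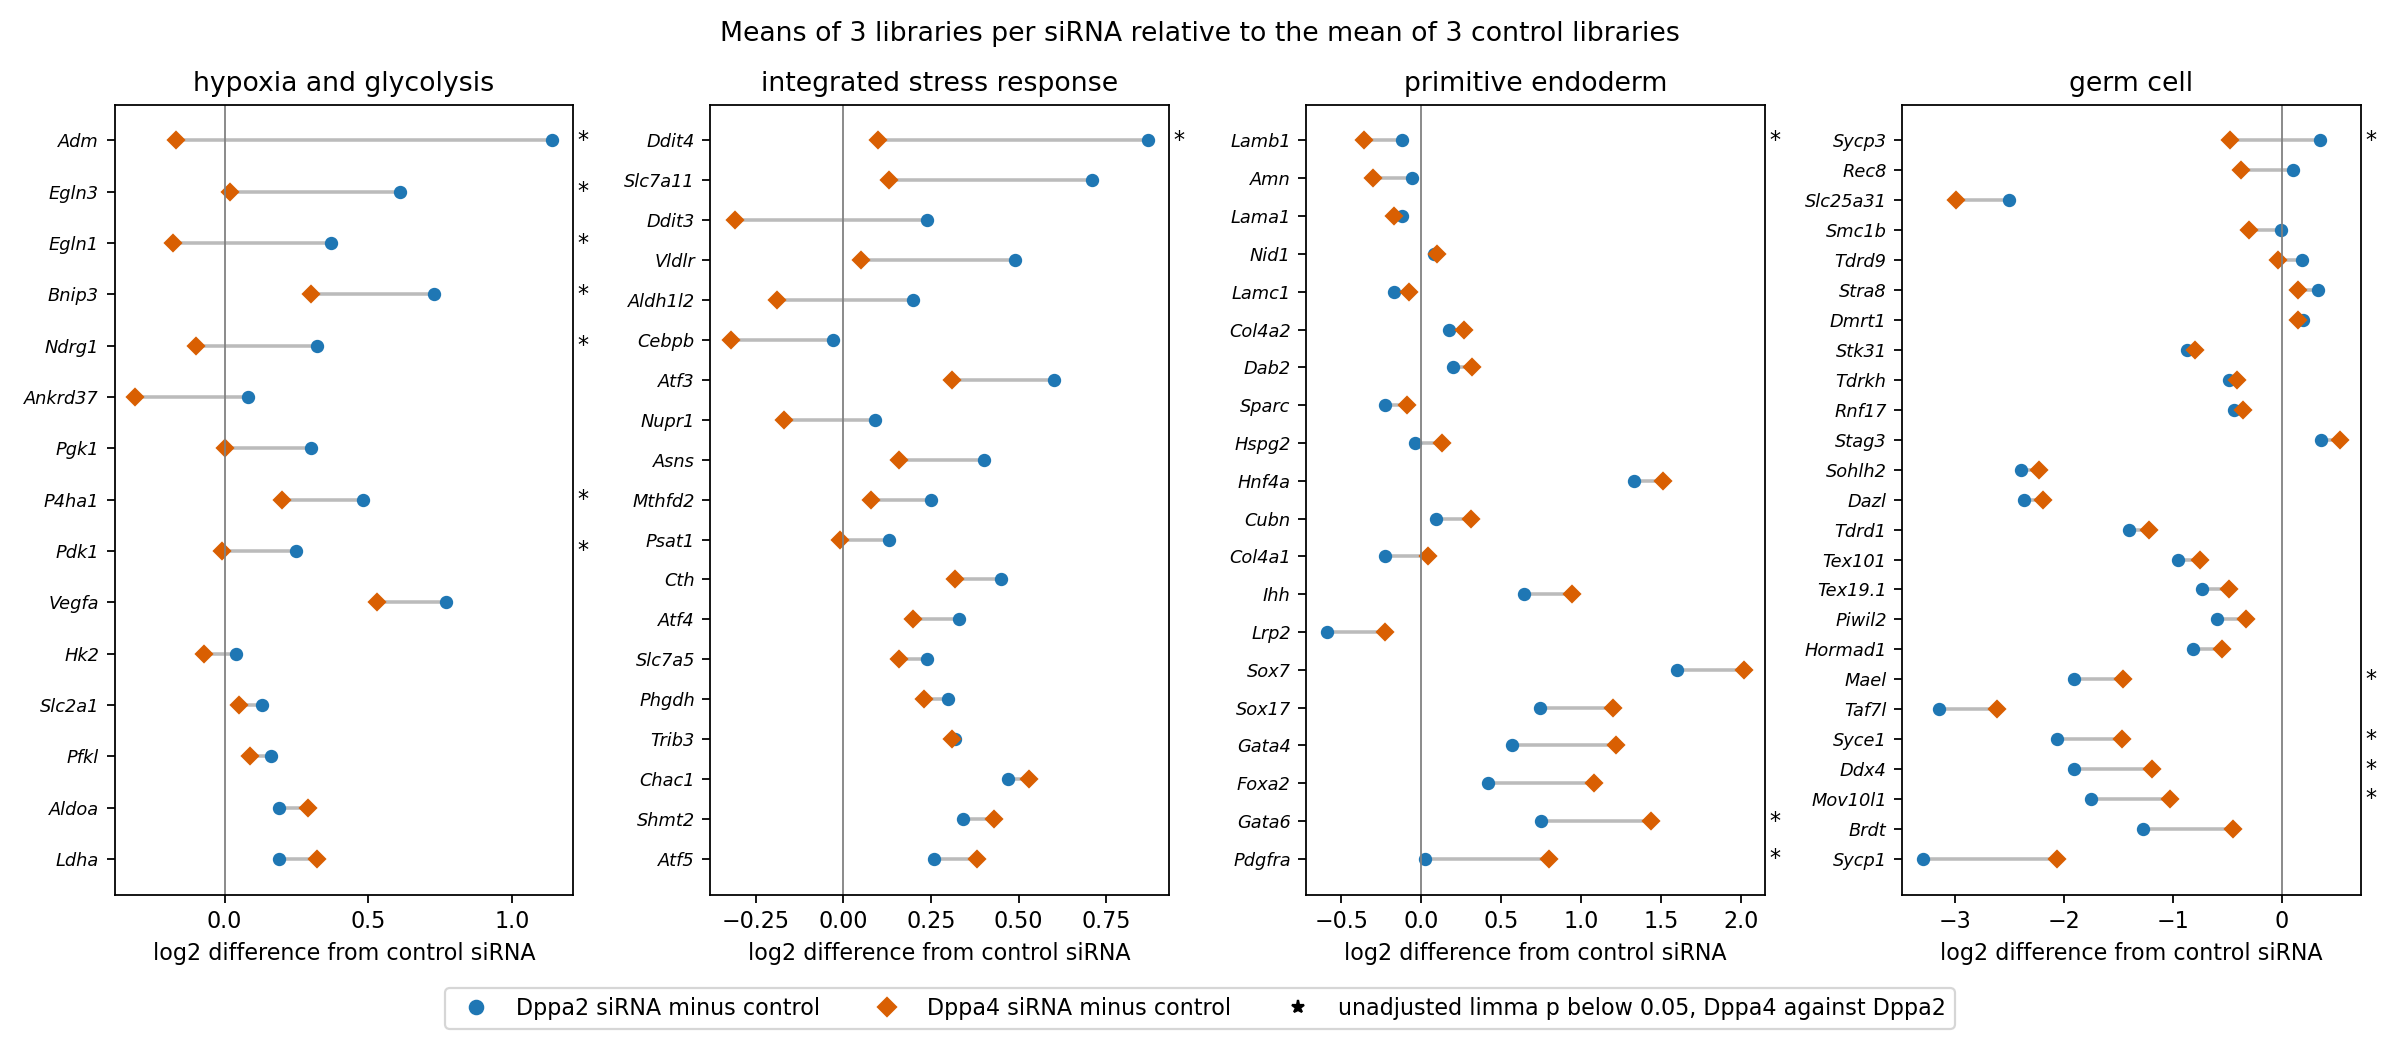
Change of each gene from the control mean, on the log2 scale, after Dppa2 siRNA (blue circles) and Dppa4 siRNA (orange diamonds), for tested members of 4 lists (1 of the 21 primitive endoderm genes is not drawn), each point from the mean of 3 libraries. An asterisk marks an unadjusted p below 0.05 between the knockdowns. Hypoxia genes lay further right after Dppa2 siRNA in 13 of 15 cases and most primitive endoderm genes further right after Dppa4 siRNA, and most germ cell genes were below control after both.

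Germ cell genes stood further below control with Dppa2 siRNA, though not in every library. Many of these genes have methylated promoters and work in meiosis or in piRNA defence against transposons. Of 25 tested members, 18 were higher with Dppa4 siRNA, with a median of 0.17, and 4 were higher and 1 lower at an unadjusted p below 0.05 (3.67% and 3.09% of all genes). The median change from control after Dppa2 siRNA was -0.87, against -0.55 after Dppa4 siRNA. Per library it was -0.87, -0.84, and -0.90 with Dppa2 siRNA and -0.61, -0.94, and -0.67 with Dppa4 siRNA, so library B of the latter overlapped. Without Dppa2 siRNA replicate A the median difference was 0.09. Members whose Dppa4 siRNA libraries lay wholly above numbered 5 and wholly below 2 (10.1% and 7.54% of all genes). Mov10l1, a helicase that feeds piRNA production, was at 0.95, 1.13, and 0.82 with Dppa2 siRNA, 1.91, 1.59, and 1.55 with Dppa4 siRNA, and 2.63 to 2.80 in control cells (difference 0.72, 0.38 to 1.06, adjusted p = 0.586 from limma). Ddx4, the germline helicase VASA, was at 0.79, 1.32, and 0.82 with Dppa2 siRNA, 1.54, 1.69, and 1.83 with Dppa4 siRNA, and 2.59 to 3.27 in control cells (difference 0.71, 0.23 to 1.20). For both genes the 3 treatments did not overlap and ran from Dppa2 siRNA through Dppa4 siRNA to control. Mael, a piRNA factor, and Syce1, a part of the synaptonemal complex, had the same order with differences of 0.45 (0.13 to 0.78) and 0.59 (0.11 to 1.07). With the GC slope as a term Mov10l1 and Ddx4 passed as higher, and Sycp3 and Rec8 as lower (1.62% and 1.84% of all genes).

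Sycp3, which builds the axis of meiotic chromosomes, ran against this group. It was at 3.24, 3.20, and 3.31 with Dppa2 siRNA, 2.51, 2.44, and 2.30 with Dppa4 siRNA, and 2.74, 2.92, and 3.03 in control cells. The control libraries lay between the knockdowns with no overlap, and the difference of -0.83 (-1.10 to -0.56) had the smallest p of the genes that missed the adjusted threshold in limma (adjusted p = 0.24). With the GC slope as a term its adjusted p was 0.00775, and over all the settings tried it ranged from 4.0e-04 (sample quality weights) to 1. Rec8, a meiotic cohesin, had a difference of -0.48 (-1.17 to 0.20).

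Among imprinted genes, single members differed in both directions. Cdkn1c, the maternally expressed cell cycle inhibitor p57, was at 5.35, 5.63, and 5.52 with Dppa2 siRNA and 6.12, 6.21, and 6.11 with Dppa4 siRNA, the latter overlapping the control range of 5.89 to 6.18. The difference was 0.65 (0.40 to 0.89, adjusted p = 0.406 from limma). Dlk1, an inhibitor of differentiation, and Igf2, the growth factor, had differences of 0.45 (0.17 to 0.74) and 0.45 (0.16 to 0.74), and Dppa2 siRNA lay below the control ranges of 2.51 to 2.70 and 3.50 to 3.87. Dppa4 siRNA lay below the first range and overlapped the second. Igf2r, which clears that growth factor, had a difference of -0.33 (-0.61 to -0.04), being lowest with Dppa4 siRNA. Over the 22 imprinted genes tested the median was 0.04, with 3 higher and 1 lower at an unadjusted p below 0.05 (3.67% and 3.09% of all genes). That median was -0.02 without Dppa2 siRNA replicate A and 0.12 without replicate B. The DNA methylation list had a median of 0.05 over 10 tested, which ranged from -0.02 to 0.20 as single libraries were left out, and Dnmt3a, a de novo methyltransferase, was its 1 member at an unadjusted p below 0.05, at 6.42, 6.88, and 6.58 with Dppa2 siRNA and 6.93, 6.99, and 7.14 with Dppa4 siRNA.

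Core and naive pluripotency genes had medians close to 0. The core list had a median of -0.05 over 8 tested (-0.13 to 0.00 as single libraries were left out) with none at an unadjusted p below 0.05, and the naive list a median of 0.01 over 19 tested, with Gbx2 higher (0.33, 0.14 to 0.52) and Tfcp2l1 lower (-0.32, -0.55 to -0.09) with Dppa4 siRNA. Both encode factors that sustain naive self-renewal. Of the 19 naive genes, 5 had all 3 Dppa4 siRNA libraries below all 3 of Dppa2 siRNA and 1 had them above (7.54% and 10.1% of all genes). Genes of primed pluripotency had a median of 0.15 over 12 tested, with 2 higher and 1 lower at that mark. Over all tested genes 3.67% were higher and 3.09% lower, the shares against which the counts for naive, primed, and gastrulation genes are to be read. The primed median rests on single libraries, being 0.02, 0.26, and 0.08 without Dppa2 siRNA replicate A, B, or C and 0.09 without Dppa4 siRNA replicate C. Foxd3 was at 4.59, 5.13, and 4.59 with Dppa2 siRNA and 5.38, 5.36, and 5.31 with Dppa4 siRNA, and Pou3f1 differed by 0.32 (0.02 to 0.63) and Otx2 by -0.24 (-0.47 to 0.00). Library B of Dppa2 siRNA stood close to Dppa4 siRNA for Foxd3, and the same library lay apart on the GC axis. Among 16 gastrulation genes (median 0.01) the mesoderm regulators T and Snai1 were higher, by 0.84 (0.28 to 1.39) and 0.68 (0.27 to 1.10), and Lefty2 lower, by -0.33 (-0.61 to -0.06). Early differentiation genes thus went both ways. Mesp1 had few reads, 18 inferred after Dppa2 siRNA against 8 after Dppa4 siRNA. It passed the filter only through the Dppa2 siRNA libraries, where it was highest, so its difference is not relied on. Id3, a BMP target that blocks differentiation, was at 3.44, 3.39, and 3.43 with Dppa2 siRNA, 4.17, 4.09, and 4.02 with Dppa4 siRNA, and 4.30, 4.22, and 4.57 in control cells, a difference of 0.67 (0.41 to 0.93, adjusted p = 0.406 from limma).

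Medians of the remaining lists lay on either side of 0. They were 0.07 for sterol synthesis (21 tested), 0.07 for heat shock (12), -0.03 for early genes of the ERK pathway (17), 0.00 for writers of bivalent chromatin (21), 0.01 for RNA interference (13), -0.06 for ribosomal proteins (82), -0.08 for Hox genes (14), and -0.09 for the interferon response (16), which siRNA transfection can set off. At an unadjusted p below 0.05 (3.67% higher and 3.09% lower among all genes) there were 2 higher and 1 lower for sterol synthesis, 1 and 1 for ERK, 2 and 2 for bivalent chromatin, 2 and 0 for ribosomal proteins, 2 and 0 for Hox, and none for the other 3 lists. Of the ribosomal protein genes 59 were below 0, whereas the 2 at that mark, Rpl29 (0.65) and Rpl7l1 (0.21), were higher. Rpl29 had only 9 to 33 inferred reads per library, so its difference carries little weight. Over the settings tried the ribosomal protein median ranged from -0.21 to 0.01. The 2 Hox genes, Hoxb1 and Hoxd11, had few reads and passed the filter only with Dppa4 siRNA libraries counted, where they were higher. Their count therefore carries no weight. On the ERK list Myc, a growth regulator, had a difference of 0.52 (0.06 to 0.98) and Ier3, an early response gene, one of -0.46 (-0.86 to -0.07), and each passed in its direction with the GC slope as a term. As single libraries were left out, the medians of the ERK, bivalent chromatin, RNA interference, ribosomal protein, and fibroblast lists changed sign, that of the interferon list ranged from -0.12 to -0.03, and that of sterol synthesis from 0.04 to 0.12. Heat shock came down to 0. Over all the settings tried the Hox median ranged from -0.13 to 0.08, so its sign was not kept. With the GC slope as a term, 1 interferon, 2 ribosomal protein, and 2 trophoblast genes passed as lower and 1 fibroblast gene as higher. Over all genes in that fit 1.84% were lower and 1.62% higher. The ribosomal protein median in it was -0.18. For the other lineages the medians were -0.12 for trophoblast (13 tested), 0.21 for neural (8), and 0.03 for fibroblast genes (6), with 0 higher and 1 lower, 1 and 0, and 1 and 1 at an unadjusted p below 0.05. As single libraries were left out, the trophoblast median ranged from -0.13 to -0.02 (without Dppa2 siRNA replicate C) and the neural from 0.12 (without Dppa4 siRNA replicate A) to 0.21. Trophoblast genes included Tfap2c, which also acts in germ cells, lower with Dppa4 siRNA by -0.43 (-0.65 to -0.21). The 2 tested clustered protocadherins and the 2 other Dppa genes had medians of -0.24 and -0.44 (-0.36 to -0.16 and -0.64 to -0.28 as single libraries were left out). Over all the settings tried the protocadherin median ranged from -0.38 to -0.05. Of the other Dppa genes, Dppa3, the maternal factor Stella, was at 4.52, 3.42, and 4.06 with Dppa2 siRNA and 3.46, 3.25, and 3.14 with Dppa4 siRNA. Around the targets themselves, 4 genes within 1 Mb were tested and none had an unadjusted p below 0.05 (median -0.08, from -0.16 to 0.03 as single libraries were left out).

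**Figure D3:**
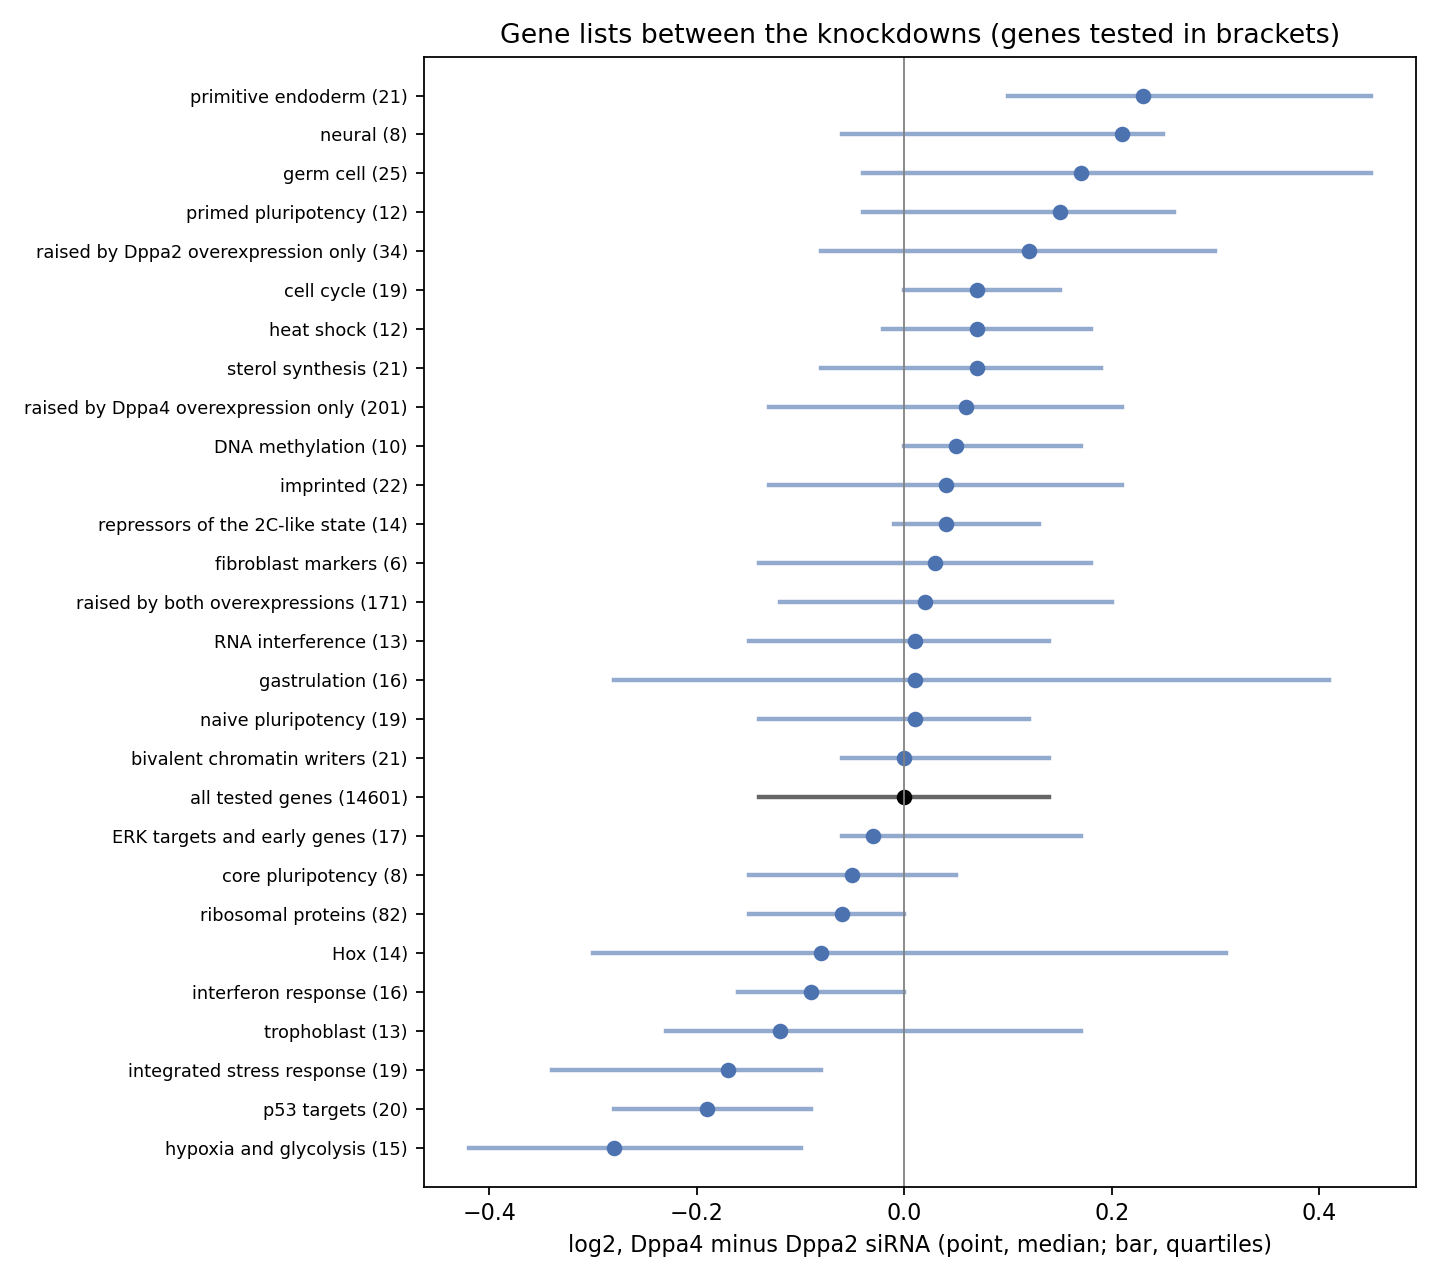
Median difference between Dppa4 siRNA and Dppa2 siRNA on the log2 scale for each list with at least 5 tested genes (points), with the quartiles of its genes (bars) and the number tested in brackets. The black point is all 14601 tested genes. Hypoxia, p53, and integrated stress response genes lay lowest and primitive endoderm genes highest, and the mitochondrial and 2-cell lists, distorted by Dppa2 siRNA library C or by scarce reads, are not drawn.

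Other transcripts that separated the knockdowns in every library had varied functions. Hmox1, the haem oxygenase of the oxidative stress response, was at 6.48, 6.60, and 6.54 with Dppa2 siRNA, 6.94, 7.04, and 6.94 with Dppa4 siRNA, and 6.58 to 6.60 in control cells, so it was above control only after Dppa4 siRNA. The same held for Plaur, the urokinase receptor (difference 0.47, 0.25 to 0.69), Cntfr, a cytokine receptor subunit related in use to the LIF receptor (0.65, 0.35 to 0.95), Slc19a1, the folate carrier (0.76, 0.39 to 1.13), and Acot11, a thioesterase (0.54, 0.27 to 0.81). For others Dppa2 siRNA was lowest and below every control library. Ccno, a cyclin-family gene needed for multiciliated cells, was at 1.25, 1.19, and 1.39 with Dppa2 siRNA, 1.89, 2.14, and 2.10 with Dppa4 siRNA, and 3.32 to 3.86 in control cells. Tnfrsf8, the surface receptor CD30, was at 0.04, 0.62, and -0.31 with Dppa2 siRNA and 1.26, 0.94, and 1.37 with Dppa4 siRNA, the latter overlapping the 1.12 to 1.39 of control cells, and the fatty acid transporter Slc27a4 had a difference of 0.46 (0.23 to 0.69).

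On the other side, Pros1 and Gpc3 were close to their control levels with Dppa2 siRNA and further below with Dppa4 siRNA. Pros1, which encodes the anticoagulant protein S, was at 4.31, 4.32, and 4.29 with Dppa2 siRNA and 3.76, 3.81, and 3.86 with Dppa4 siRNA, against 4.35 to 4.39 in control cells (difference -0.50, -0.69 to -0.30, adjusted p = 0.427 from limma). Gpc3, a glypican that limits growth, differed by -0.61 (-0.87 to -0.34). Ltbp1, which stores latent TGF-beta, and Ppp3ca, the catalytic subunit of calcineurin, were below control in both and lowest with Dppa4 siRNA, with differences of -0.73 (-1.06 to -0.39) and -0.54 (-0.81 to -0.27). Trim56, a ubiquitin ligase, was above control only with Dppa2 siRNA (-0.54, -0.79 to -0.28). Pfkp, the platelet form of the enzyme that commits glucose to glycolysis, was at 7.30, 7.20, and 7.34 with Dppa2 siRNA, 6.78, 6.75, and 6.80 with Dppa4 siRNA, and 7.01, 7.09, and 7.03 in control cells, a difference of -0.50 (-0.68 to -0.32). Dusp16, a phosphatase of stress kinases, and A930001N09Rik had the same order, with differences of -0.49 (-0.72 to -0.27) and -0.46 (-0.66 to -0.25).

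A few transcripts outside the naming rule were chosen after their values were seen because they had wide differences or passed with the GC slope as a term. Edn2, which encodes the peptide endothelin 2, was scarce, with an inferred 3, 1, and 0 reads in Dppa2 siRNA libraries A, B, and C, 13, 23, and 22 in those of Dppa4 siRNA, and 18, 13, and 11 in control libraries. Per read on genes the ratio of the knockdowns was 11.3 (4.19 to 43.0). Edn2 passed the filter only with Dppa4 siRNA libraries counted, where it was high, so this ratio is descriptive. Wt1, the Wilms tumour factor, was at 1.79, 2.97, and 2.10 with Dppa2 siRNA and 3.16, 3.56, and 3.59 with Dppa4 siRNA, and Acaca, the rate-limiting enzyme of fatty acid synthesis, at 4.73, 5.20, and 4.92 against 5.71, 5.74, and 5.84. Dpp4, a surface peptidase, and Ccnd2, a G1 cyclin, had differences of 0.65 and 0.64 (-0.16 to 1.44 for Ccnd2). Among those lower with Dppa4 siRNA were the linker histone H1f0 at -0.56 and the lactate dehydrogenase subunit Ldhb at -0.34 (-0.82 to 0.13). For Ccnd2 and Ldhb the libraries of the knockdowns overlapped, and neither passed without a further term or sample weights.

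Some genes had the control level between the knockdowns. The order Dppa2 siRNA, control, Dppa4 siRNA from low to high, with no overlap among the 9 libraries, was found at 17 genes (0.116%) and the reverse order at 17 (0.116%). The first set included Gbx2 and, named after their values were seen, Slc5a6 (a biotin transporter, 0.37), and Farsa (a tRNA synthetase subunit, 0.31), and the second Sycp3 and Pfkp and, chosen likewise, Insr (the insulin receptor, -0.46) and Wnt7b (a Wnt ligand, -0.56).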

How the data were processed

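RNA-seq of 9 siRNA libraries was used. According to the submitters' processing notes, reads were trimmed with Trim Galore 0.4.5 and mapped to GRCm38 with HISAT2 2.0.5. The authors quantitated mRNA probes in SeqMonk, matched the distributions of the libraries, and deposited log2 values for 25965 genes. The methods name DESeq2, which was not used because it needs counts, and limma 3.58.1 (R 4.3.3) took its place. Genes above -2 in at least 3 of 9 libraries were tested (14601), with treatment as the only term, an intensity trend, and Benjamini-Hochberg adjustment at 0.05. All tests are two-sided. Reads were inferred from the order of distinct values, 1 read a step up to 300 reads (63.5% to 71.8% of genes per library) and by a linear slope above. Totals are estimates. Gene positions and GC content came from GENCODE annotation of GRCm38, with GC content and length for 98.8% of tested genes. Low-read ratios have exact Clopper-Pearson intervals.

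Named genes were those at an adjusted p below 0.05, then the 12 each way with the smallest p whose libraries did not overlap and whose mean reached 1 in a knockdown, then up to 5 members of each list at an unadjusted p below 0.05. Others are list members named for abundance, role, or width of difference, or are said to be chosen after their values were seen. Members and lists were chosen with earlier results of these data known. Lists were described by counts and medians and not tested. The alternatives were the 6 knockdown libraries alone, a replicate block, no trend, sample quality weights, other filters, a pseudocount of 1, median centring, quantile normalization, an intensity difference filter rebuilt from the nearest 1% of genes, and leaving out each library. Terms for the GC or length slope of each library and a spline correction for both were added after seeing the data. Tables and figures used Python 3.11.15, pandas 2.3.3, numpy 2.4.6, scipy 1.17.1, and matplotlib 3.10.9.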

Additional observations from a re-analysis of the deposited data

Results flagged for a closer look

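Dppa2 (3.43), Dppa4 (-0.99), and 4930486L24Rik (3.26) stood out because the effects of the knockdowns differed by the test of the difference itself, with adjusted p below 0.05 in limma. The first 2 are the siRNA targets. The calls for Dppa4 and 4930486L24Rik were lost under some of the settings tried.

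For 9 named genes every library of one knockdown lay above all control libraries and every library of the other below them. With Dppa2 siRNA above control, the differences were -0.83 for Sycp3, -0.50 for Pfkp, -0.46 for A930001N09Rik, -0.49 for Dusp16, -0.46 for Insr, and -0.56 for Wnt7b. With Dppa4 siRNA above control, they were 0.33 for Gbx2, 0.37 for Slc5a6, and 0.31 for Farsa. Insr, Wnt7b, Slc5a6, and Farsa were named because of this order. None of the 9 had an adjusted p below 0.05 in limma, and as opposite movements these were not tested. This order was found at 0.116% of tested genes each way.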

How the results depend on the processing

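The count of genes higher with Dppa4 siRNA was 1 rather than 2 with the 6 knockdown libraries alone and with a pseudocount of 1. With the replicate letter as a block (replicate block) it was 1, with 0 lower, and the Dppa4 difference of -0.99 had an adjusted p of 0.126. The letters do not pair the libraries: deviations of same-lettered Dppa2 and Dppa4 siRNA libraries correlated across genes at 0.367, -0.037, and -0.181 for A, B, and C. Sample quality weights gave 2052 higher, 1723 lower, and 5956 at an unadjusted p below 0.05. Their default estimate did not converge, and the gene-by-gene estimate used ran from 0.18 to 5.9. These weights were estimated from the same libraries that they weight, which within a treatment vary mainly along 1 axis. Neither these calls nor the lowest adjusted p of single genes, most of which came from the weights, are relied on. Without a filter 2 genes were lower. Added after seeing the data, the GC slope as a term gave 237 higher, 269 lower, and 3896 at an unadjusted p below 0.05, and the length slope 340, 368, and 3744, and 369 genes passed under each of these terms. Counts at an unadjusted p below 0.05 were 1538 with 6 libraries and 332 among genes that passed the intensity difference filter (main 987). The causes were not tested. Leaving out each library gave 1 to 2 higher, 0 to 1 lower, and 461 to 1472 at an unadjusted p below 0.05 (641 and 520 without Dppa2 siRNA replicate A or C, 550 and 461 without Dppa4 siRNA replicate A or B), a Dppa2 difference of 3.30 to 3.55, and a Dppa4 difference of -1.01 to -0.96. Some genes whose difference changed sign under a setting were left unnamed for that reason, so stable signs among named genes are partly a matter of choice. Depth limits scarce transcripts most: below a mean of 1 the median 95% interval reached 0.86 to either side.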

Other observations

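Dppa2 siRNA library C stood apart from the other 8 libraries in a stretch of the mitochondrial genome. The adjacent genes mt-Co2, mt-Atp8, mt-Atp6, mt-Co3, mt-Nd3, and mt-Nd4l, from position 7013 to 10173, encode subunits of the respiratory chain and ATP synthase. In that library mt-Co3 was at 8.28, mt-Co2 at 8.44, and mt-Atp6 at 8.54, whereas the highest of the other 8 libraries were at 1.57, 1.81, and 1.98. The scarcer mt-Nd3, mt-Atp8, and mt-Nd4l were at 4.35, 4.26, and 2.73 against at most -1.75, -0.12, and -2.07. The flanking mt-Co1 and mt-Nd4 were at 11.35 and 10.09 in library C, within the range of the others. Nuclear copies of mitochondrial sequence make reads on such genes uncertain, and how reads that match several places were treated per library was not tested. In all, 7 genes in this library lay more than 3 above every other library, 6 of them mitochondrial, against 0 to 2 genes in each of the other 8.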
